A study of Mus musculus with 15 samples.

Results

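Ovaries carrying 1 disrupted copy of *Foxl2* (Foxl2+/-) were compared with wild-type ovaries (Foxl2+/+) at 7 days postnatum (dpn). The arrays were chosen by their labels, which title these samples 1 week old and give heterozygous or wild-type genotype, and they are 4 of the 15 arrays of the series, 2 of each genotype. The other 11 arrays hold 2 Foxl2-/- (null) samples of 7 dpn and 3 newborn samples of each of the 3 genotypes, and they enter here as values set beside the heterozygous ones and in the common estimate of the spread. All samples were whole ovaries of female mice labelled NIHS-BC, a mixed background per the methods, and each 7 dpn array carried RNA pooled from several mice, so that individual animals cannot be told apart. One label field dates every sample to birth, but title, developmental stage and methods place these at 7 dpn, which was used. The methods give 4 samples at 7 dpn, whereas 6 carry that stage.

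FOXL2 is a forkhead transcription factor of granulosa cells, the somatic cells that surround and nourish the oocyte. Loss of 1 copy causes eyelid malformation with premature ovarian failure in people, and loss of both copies in mice blocks follicle growth. Granulosa cells of growing follicles make aromatase, which converts androgens to estrogens, and the activins, dimers of beta subunits, and the inhibins, which join a beta to the alpha subunit. Both act on the pituitary and within the follicle, where follistatin binds activin. In the first week after birth the first follicles leave the resting pool, so a comparison at 7 dpn asks which genes respond to a single lost allele when growth begins.

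Each value is a log2 ratio of ovary RNA (Cy3) over a universal mouse reference RNA (Cy5), a pool from cultured cell lines, hybridized to the same spot. A value of 0 means equal signal in ovary and reference, and a difference of 1 between genotypes is a doubling. Since whole ovaries were measured, fewer cells of a type and less RNA per cell cannot be told apart in any of the values. The probes are 60 bases long, and the first 30 bases of those that carry the main results are shown as deposited, so that the measured transcript can be identified. *Inhba*, *Smoc1*, *Thbs4* and *Col11a1* fell, *Lamb3* and *Acss2* rose, *Cyp19a1* is the aromatase probe that did not pass the test, *Foxl2* is the disrupted gene, and AK014427 and BG082429.1 are unnamed probes that fell and rose.
On GRCm38.p6 *Inhba* lies at chr13:16004256-16031609, *Smoc1* at chr12:81026808-81186414, *Thbs4* at chr13:92751586-92794818, *Col11a1* at chr3:114030479-114220756, *Lamb3* at chr1:193294353-193343878, *Acss2* at chr2:155518043-155562743 and *Cyp19a1* at chr9:54165937-54268164 (RefSeq gene spans).
*Inhba*: catcatcaaaaaggacattcaaaacatgat
*Smoc1*: agagaagccacctttatgtaggagtttaga
*Thbs4*: ttgagccaagaagcaatcccacaactgcct
*Col11a1*: caaacttgcacatgactctcaatcccaccc
*Lamb3*: ggtagagtctgggaccaactcaaaaacgga
*Acss2*: ccatgagaggcacttgtaggtgaaactctc
*Cyp19a1*: atagggtgtcgtttcttactctcaatttgt
*Foxl2*: aggctcactctgtccggcatctaccagtac
AK014427: aattgccattaaggaactgctggaacagga
BG082429.1: aatgagtttgatttcactgcagattttccc

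The 4 arrays were of like quality. In the ovary channel 94.41 to 95.21% of probes stood well above background and 37 to 87 spots were saturated. Log2 ratios of the 2 heterozygous arrays correlated across probes with r = 0.955 and those of the 2 wild-type arrays with r = 0.94, and 284 and 473 probes, respectively, differed at least 2-fold between arrays of the same genotype. Heterozygous and wild-type arrays correlated with r from 0.93 to 0.951, so arrays of different genotype were about as alike as the wild-type pair. Ovarian markers were present in both genotypes. *Gdf9*, an oocyte growth factor, lay between 6.01 and 6.24, and *Amhr2*, the receptor of anti-Mullerian hormone on granulosa cells, between 5.48 and 5.63. The *Foxl2* probe read -0.26 and -0.33 in heterozygous and -0.36 and -0.29 in wild-type ovaries, a difference of 0.03 ± 0.05 (SE, adjusted p = 0.977, limma). The null ovaries differed from wild-type at this probe by 0.08, so the probe did not separate the genotypes and could not check the labels. Of the Y-linked genes, *Uty* was not well above background on any of the 4 arrays, and *Eif2s3y* and *Ddx3y* overlapped between the genotypes.

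Few probes changed. At an adjusted p under 0.05 in limma, 19 of 40994 probes tested were called (0.0463%), of which 12 were lower in heterozygous ovary (0.0293%) and 7 higher (0.0171%). With each array centred on its median in place of loess, 9 were lower and 18 higher, and with normexp background correction and loess within each array 31 and 89. Of 12247 genes with a symbol, each given by its brightest probe, 4 were lower (*Inhba*, *Smoc1*, *Thbs4* and *Col11a1*, 0.0327%) and 3 higher (*Lamb3*, *Acss2* and *Zup1*, 0.0245%). Together they are 0.0572% of the named genes. Without adjustment, 3540 probes had p under 0.05, 1836 of them higher (4.48%) and 1704 lower (4.16%). The call rests on the spread pooled over 15 arrays. With the 6 arrays of 7 dpn alone no probe was called (smallest adjusted p = 0.107, limma, 3783 probes at an unadjusted p under 0.05), nor with the 4 arrays compared (smallest adjusted p = 0.544, 3034 probes), and leaving out 1 array moved the count from 0 (without heterozygous replicate 2) to 194 (without wild-type replicate 1). All 19 probes kept their direction in each of these fits.

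*Inhba*, which encodes the beta A subunit of activin and inhibin, showed the largest fall among the named genes that passed the test. Its log2 ratio was -1.49 and -1.59 on the heterozygous arrays and 0.86 and 0.25 on the wild-type arrays. The difference was -2.09 ± 0.29, a 4.27-fold lower ratio (adjusted p = 0.042, limma). The heterozygous values lay close together and both below either wild-type value, while the wild-type arrays differed from each other by more than the heterozygous ones. *Thbs4*, a thrombospondin of the extracellular matrix, read 1.72 and 2.02 against 3.21 and 3.35, a difference of -1.41 ± 0.17 (2.66-fold, adjusted p = 0.026). *Col11a1*, a chain of fibrillar collagen XI, read 0.08 and 0.30 against 1.01 and 1.34, a difference of -0.99 ± 0.14 (1.98-fold, adjusted p = 0.043). For both matrix genes the gap between the genotypes exceeded the gap between arrays of either one.

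*Smoc1*, a secreted calcium-binding matrix protein that antagonizes BMP signals, read 1.14 and 1.36 in heterozygous and 2.58 and 2.75 in wild-type ovaries. The difference was -1.41 ± 0.14 (2.66-fold, adjusted p = 0.018, limma). The null ovaries, at 2.82 and 3.00, were not low, and they differed from heterozygous ovaries by 1.66 ± 0.14 (adjusted p = 0.00024), so *Smoc1* was low on the heterozygous arrays and on neither the wild-type nor the null arrays of this age. A dimmer *Smoc1* probe showed a difference of -0.15 between heterozygous and wild-type (adjusted p = 0.80).

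The 3 named genes that rose did so by less. *Lamb3*, a laminin chain of basement membranes, read -2.02 and -2.06 in heterozygous and -2.64 and -2.72 in wild-type ovaries, a difference of 0.64 ± 0.09 (1.56-fold, adjusted p = 0.034, limma). *Acss2*, which makes acetyl-CoA from acetate, read 0.58 and 0.76 against 0.18 and 0.08, a difference of 0.54 ± 0.07 (1.45-fold, adjusted p = 0.026). *Zup1*, a deubiquitinating enzyme, read 1.5 and 1.47 against 1.00 and 1.14, a difference of 0.42 ± 0.05 (1.33-fold, adjusted p = 0.032). In each case arrays of a genotype lay closer together than the genotypes did. Over the alternative settings the differences ran from 0.305 to 0.71 for *Lamb3*, from 0.35 to 0.63 for *Acss2* and from 0.35 to 0.62 for *Zup1*. The difference of *Zup1* was the smallest in size that was called at any probe. A second *Lamb3* probe, which was well above background on 1 of the 2 heterozygous arrays, showed 0.01. The dimmer of the probes for *D6Wsu163e* also rose, from -0.10 and -0.07 to 0.43 and 0.59 (0.60 ± 0.08, adjusted p = 0.026), whereas its brightest probe did not pass the test (0.13, adjusted p = 0.75).

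**Figure D1:**
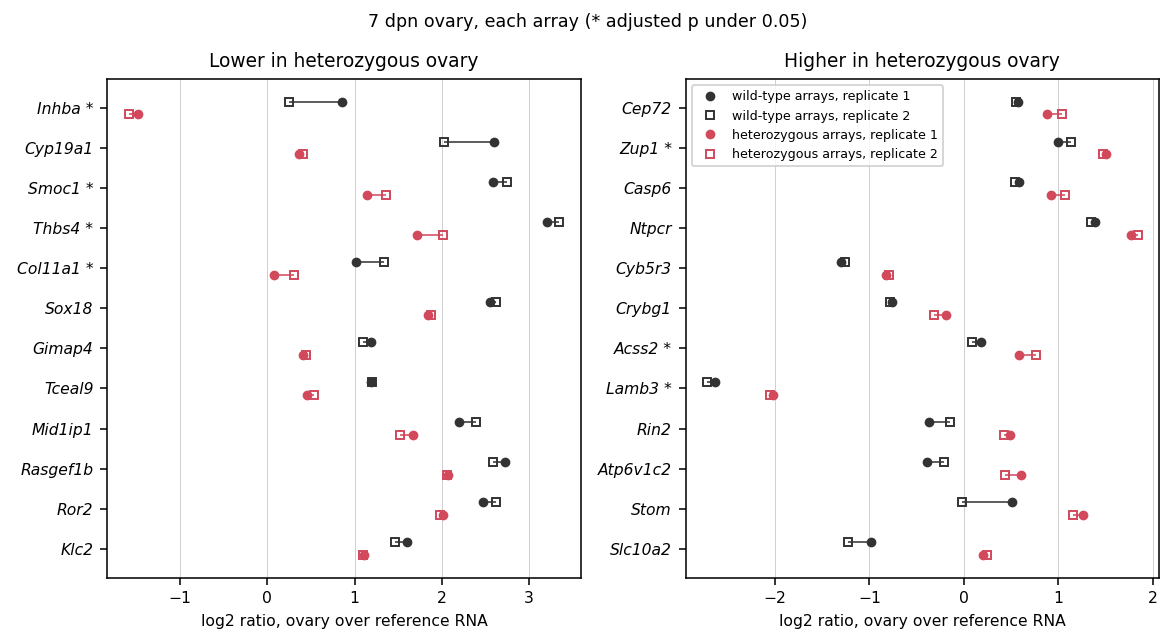
Log2 ratio of ovary over reference RNA (horizontal axis) on each of the 4 arrays for the 12 lower and 12 higher genes picked by the naming rule (vertical axis), wild-type in black and heterozygous in red, circles for replicate 1 and open squares for replicate 2, asterisks for genes with an adjusted p under 0.05 (limma). Places beyond the called genes were filled by smallest p and not by size of the difference. The 2 heterozygous and the 2 wild-type values of every gene drawn lie apart, which the naming rule required, and *Inhba* shows the widest gap, from -1.59 and -1.49 to 0.25 and 0.86.

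The remaining 11 probes that passed the test carry no gene symbol here. The lowest p belonged to AK014427, which fell from 1.23 and 1.44 in wild-type to -0.56 and -0.77 in heterozygous ovaries (-2.00 ± 0.16, adjusted p = 0.0042, limma), and another, AK083556, fell by 1.77 ± 0.24 (adjusted p = 0.038). BG082429.1 rose from 1.97 and 1.75 to 3.22 and 2.97 (1.23 ± 0.15, adjusted p = 0.026). Its null values, 0.75 and 0.69, lay on the other side of wild-type, and null and heterozygous ovaries differed by -2.37 ± 0.15 (adjusted p = 5.8e-05). For these 3 probes the gap between genotypes was several times that between arrays. Over the alternative settings the differences ran from -2.11 to -1.23 for AK014427, from -1.90 to -1.59 for AK083556 and from 1.11 to 1.40 for BG082429.1.

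Promoters, 250 bases before to 50 after 1 transcript start listed for each gene, were taken from RefSeq (GRCm38.p6) and searched on both strands for the forkhead motif GTAAACA and the steroidogenic factor motif AAGGTCA. The forkhead motif was found in 1 of the 20 named genes with a promoter, *Zup1*, and in 3.65% of all 32851 promoters. The other motif was found in 2 of the 20, *Col11a1* and *Gimap4*, and in 4.72% of all. The start listed for *Inhba* lies deep inside its gene span, and its window is not shown, whereas those of *Col11a1* and *Zup1* lie near an end of theirs. The promoters of *Col11a1* and *Zup1* are shown as those of the called genes with a match, which is in capitals and begins at positions -71 and -179 relative to the listed start. A match describes the sequence and does not show binding.
*Col11a1*, chr3:114030290-114030589, plus strand: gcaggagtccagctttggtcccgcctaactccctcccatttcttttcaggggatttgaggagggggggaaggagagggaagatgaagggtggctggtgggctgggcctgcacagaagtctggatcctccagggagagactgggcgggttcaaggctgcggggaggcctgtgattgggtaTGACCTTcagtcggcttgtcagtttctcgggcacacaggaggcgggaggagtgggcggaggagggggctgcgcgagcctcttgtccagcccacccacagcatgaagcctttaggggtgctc
*Zup1*, chr10:33951210-33951509, minus strand: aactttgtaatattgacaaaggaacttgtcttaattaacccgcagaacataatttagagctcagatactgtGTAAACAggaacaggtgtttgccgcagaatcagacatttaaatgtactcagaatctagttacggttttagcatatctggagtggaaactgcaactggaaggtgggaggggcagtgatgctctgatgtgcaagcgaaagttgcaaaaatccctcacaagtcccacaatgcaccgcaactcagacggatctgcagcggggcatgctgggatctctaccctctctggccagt

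Of the genes that missed the threshold, *Cyp19a1* differed most among those the naming rule picked. This gene encodes aromatase. Its log2 ratio was 0.36 and 0.41 on the heterozygous and 2.60 and 2.03 on the wild-type arrays, a difference of -1.93 ± 0.33 (adjusted p = 0.088, limma, 0.056 to 0.546 over the alternative settings). A second probe read 2.26 and 3.07 against 4.31 and 3.82, a difference of -1.40 ± 0.47 (adjusted p = 0.375). On both probes the 2 heterozygous arrays lay below the 2 wild-type arrays. The other 7 low genes picked had adjusted p from 0.055 to 0.087. They include *Ror2*, a receptor of Wnt ligands, at -0.55, *Sox18*, a transcription factor of vessel endothelium, at -0.73 and *Rasgef1b*, an exchange factor of Ras-family GTPases, at -0.59. They also include *Gimap4*, a GTPase of lymphocytes, at -0.72 and *Mid1ip1*, a regulator of fatty acid synthesis, at -0.70.

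Among genes that were higher without passing the test, *Slc10a2*, a bile acid transporter, was not well above background on either wild-type array, and its heterozygous level was at least 2.14-fold higher (fitted adjusted p = 0.051, limma). That bound holds for the processed intensities only, since the fitted log2 difference of 1.33 was 0.18 under normexp with within-array loess and 0.20 with the series values. *Stom*, a membrane protein, read 1.26 and 1.15 against 0.50 and -0.02 (0.96 ± 0.14, adjusted p = 0.055), with a second probe at 0.25. *Casp6*, an executioner caspase, differed by 0.43 (adjusted p = 0.074) and *Rin2*, an activator of the endosomal GTPase Rab5, by 0.71 (adjusted p = 0.058). *Atp6v1c2*, a proton pump subunit, was well above background on 1 of the 2 wild-type arrays, and its fitted difference of 0.82 (adjusted p = 0.074) ran from 0.20 to 0.91 over the alternatives. For *Rin2* a second probe showed 0.06 and its heterozygous and wild-type arrays overlapped. The lowest adjusted p in this group, 0.051, was shared by *Slc10a2*, *Cyb5r3* and *Ntpcr*.

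Larger differences with a wider spread also missed the threshold. Chosen after their values were seen, *Nap1l5*, *Pln* and *Bmp3* showed the largest falls among uncalled named genes whose arrays did not overlap. *Nap1l5*, an imprinted gene of the nucleosome assembly family, differed by -2.39 ± 0.57 (adjusted p = 0.20, limma), *Pln*, the regulator of the calcium pump of muscle, by -2.36 ± 0.67 (adjusted p = 0.28) and *Bmp3*, a BMP family ligand, by -2.10 ± 0.37 (adjusted p = 0.089). Over the alternative settings *Nap1l5* ran from -2.99 to -1.92, *Pln* from -2.75 to -0.82 and *Bmp3* from -2.60 to -1.29. Of 149 probes past 2-fold, 135 did not overlap between the genotypes and 6 were called.

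Without regard to the fit, 7813 of 40826 probes measured on all 4 arrays had both heterozygous values above both wild-type values (19.1%) and 6915 had both below (16.9%). This split depended on the scaling, with 15404 above and 2748 below by the authors' series values and 7159 above and 8472 below with the ovary channel alone. Past a 1.5-fold difference these were 380 probes (0.931%) and 423 probes (1.04%), and for named genes 100 higher (0.822%) and 126 lower (1.04%) of 12160. With 2 arrays a side there are 6 ways to split the arrays, so an exact two-sided permutation test of a single gene cannot give less than 0.333, and a lack of overlap in itself carries little weight. The median standard error of a difference was 0.109 in the fit over 15 arrays, which leaves 9 residual degrees of freedom, and a call needed an unadjusted p of 1.98e-05 or less.

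**Figure D2:**
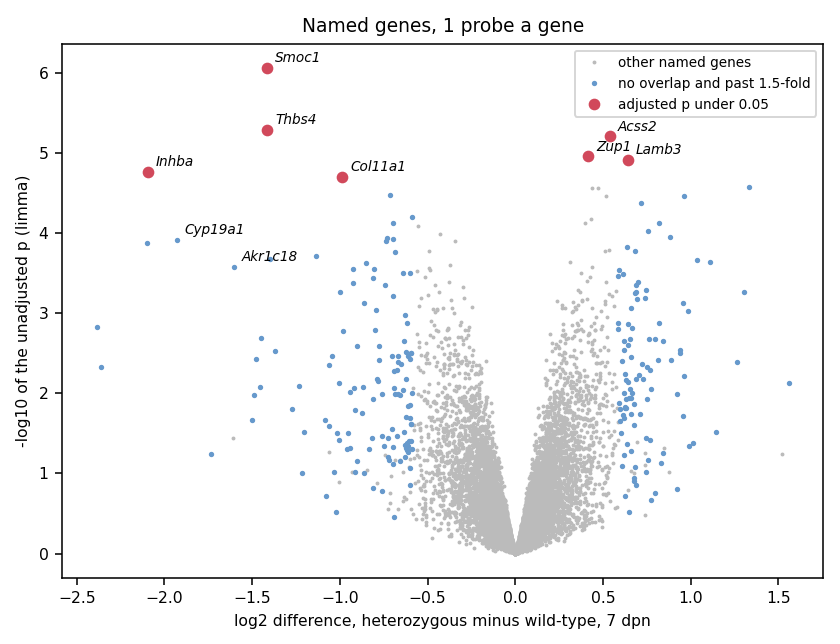
Log2 difference, heterozygous minus wild-type at 7 dpn (horizontal axis), against -log10 of the unadjusted p from limma (vertical axis) for the named genes, 1 point a gene, red for the 7 genes with an adjusted p under 0.05 and blue for genes whose arrays did not overlap and differed over 1.5-fold. *Cyp19a1*, at -1.93, lies below *Smoc1* and *Thbs4*, both at -1.41, with a wider spread.

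Granulosa genes were read as a list of 22, of which 18 had a named probe. *Inhba* alone passed the test, and 14 of the 18 were lower in heterozygous ovary and 4 higher, with a median difference of -0.24 beside 0.00 over all named genes, where 5984 were lower and 6263 higher. The 2 heterozygous arrays lay below both wild-type arrays for 11 of the 18 and above them for none (over all named genes 17.6% and 20.1%). At an unadjusted p under 0.05 in limma 8 of the 18 were lower and 0 higher (5.26% and 6.01% over all named genes). The paper lists *Inhba*, *Inhbb* and *Nr5a2*, members of this list, among its top-scoring genes for the dosage effect in heterozygous ovaries. The list was thus not chosen independently of these data, and its counts only describe them. The mean log2 ratio over the list was 1.56 and 1.57 on the heterozygous and 2.13 and 2.03 on the wild-type arrays. *Fst*, which encodes the activin-binding protein follistatin, read 0.85 and 0.60 against 1.89 and 1.56 (-1.001 ± 0.208, adjusted p = 0.146, limma). *Inha*, the alpha subunit of inhibin, read 4.07 and 4.15 against 4.85 and 5.20 (-0.91 ± 0.32, adjusted p = 0.408). *Kitl*, the granulosa ligand of the oocyte receptor KIT, read 0.47 and 0.63 against 1.19 and 0.75 (-0.42, adjusted p = 0.359), with a second probe at -0.29. None of these 3 passed, though their arrays did not overlap, and *Amhr2* (-0.01), *Igf1* (0.03), *Wt1* (-0.12) and *Amh* (-0.18) differed by little. The list median stayed below 0 in all 14 alternative settings, from -0.42 to -0.12.

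Theca cells, the outer steroid-making layer of the follicle, supply androgen to aromatase and respond to hedgehog signals from granulosa cells. Of 21 listed genes of theca and steroid synthesis 15 had a named probe, none passed the test, and 14 were lower and 1 higher (median -0.38, -0.47 to -0.25 over the alternatives). For 9 of the 15 both heterozygous arrays lay below both wild-type arrays (17.6% over all named genes), 8 had an unadjusted p under 0.05, all lower (5.26% over all named genes), and the list mean was 0.70 and 0.62 on the heterozygous and 1.32 and 1.00 on the wild-type arrays. The paper names *Cyp11a1* and *Cyp17a1*, members of this list, among the same top-scoring genes, so these counts too only describe the data. *Akr1c18*, which breaks down progesterone, read 0.69 and 1.11 against 2.40 and 2.61 (-1.61 ± 0.30, adjusted p = 0.116, limma), with a second probe at -0.67. *Gli1*, a hedgehog target and effector, read 2.14 and 1.98 against 3.13 and 2.83 (-0.93 ± 0.18, adjusted p = 0.116), whereas a second probe differed by 0.17 (adjusted p = 0.974) with overlapping arrays. *Akr1c14*, a hydroxysteroid dehydrogenase, read 3.62 and 3.92 against 5.005 and 4.35 (-0.91 ± 0.23, adjusted p = 0.234). On the brightest probes of these 3 genes the genotypes did not overlap. *Cyp17a1*, the androgen-making lyase, was at 0.45 and 0.44 against 1.59 and 0.64, a difference of -0.67 (adjusted p = 0.363) with wild-type replicate 2 close to the heterozygous arrays. A second *Cyp17a1* probe read 0.85 and 0.65 against 1.93 and 1.35, a difference of -0.89 ± 0.19 (adjusted p = 0.155), with both wild-type arrays above both heterozygous ones. *Star*, the cholesterol carrier of mitochondria, differed by -0.07. *Nr5a1*, the steroidogenic factor, differed by -0.38 (adjusted p = 0.201), and by 0.18 when the ovary channel was used alone.

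Of the activin, inhibin, BMP and TGF-beta pathway, 31 of 40 listed genes had a named probe. *Inhba* alone passed, 14 were lower and 17 higher, and the median was 0.01. The ligand subunits *Inhba* and *Inha* and the antagonist *Fst* were the low end of the list, with *Bmp7*, a ligand, at -0.50 (adjusted p = 0.381, limma). At the other end *Smad6*, an inhibitory SMAD, read 0.46 and 0.26 against -0.10 and -0.37 (0.59 ± 0.11, adjusted p = 0.116). The *Smad6* difference ran from 0.19 to 0.73 over the alternative settings. Among receptors, *Bmpr2* differed by -0.41 and *Acvr1b* by 0.09. Of the receptor-regulated SMADs, *Smad3*, which relays activin signals and was measured on 3 of the 4 arrays, differed by -0.29 (adjusted p = 0.841), *Smad1* by -0.18, *Smad2* by 0.07, *Smad5* by 0.05 and *Smad9* by 0.06.

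Germ cell genes differed in either direction. Of 31 oocyte genes 25 had a named probe, none passed, 17 were lower and 8 higher, and the list mean was 3.29 and 3.13 on the heterozygous and 3.18 and 3.24 on the wild-type arrays. The oocyte median was -0.15 and ran from -0.22 to 0.32 over the 14 alternatives, above 0 in 4 of them. *Figla*, a transcription factor of zona pellucida genes, was measured on 3 of the 4 arrays, at 5.73 and 5.64 against 6.14 (-0.46, adjusted p = 0.386, limma), and its sign turned in 3 of the alternatives, with the series values passing the test in the opposite direction (1.10, adjusted p = 0.044). *Dazl*, an RNA-binding protein of germ cells, read 3.88 and 3.92 against 4.43 and 4.46 (-0.54 ± 0.21, adjusted p = 0.486), and its sign turned with the ovary channel alone. Of 21 genes of meiotic prophase 19 had a named probe, none passed, 10 were lower and 9 higher (median -0.04, from -0.07 to 0.26 over the alternatives and above 0 in 4 of them). *Smc1b*, the meiotic cohesin subunit, read 2.89 and 2.71 against 2.08 and 2.07 (0.73 ± 0.22, adjusted p = 0.309), and *Tex11*, a crossover factor, 1.71 and 2.00 against 1.43 and 1.59 (0.35, adjusted p = 0.477).

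No gene of testis determination or of the fetal ovarian soma passed the test. Of 17 testis genes with a named probe (20 listed) 8 were lower and 9 higher (median 0.01). At an unadjusted p under 0.05 in limma 4 of the 17 were higher and 1 lower (6.01% and 5.26% over all named genes), and without overlap 6 were higher and 3 lower (20.1% and 17.6%). The 4 are *Sox9*, *Tesc*, *Col9a3* and *Fgf9*, of which *Col9a3* was not well above background on any of the 4 arrays. The highest difference, of *Aard*, was 0.74 (adjusted p = 0.596) with overlapping arrays. *Sox9*, the testis-determining factor downstream of SRY, read -0.54 and -0.94 against -1.25 and -0.99 (0.38 ± 0.13, adjusted p = 0.411, limma), with heterozygous replicate 2 next to wild-type replicate 2, and a second probe showed 0.09. *Fgf9*, a testis growth factor, differed by 0.12. Of 15 fetal somatic genes (20 listed) 7 were lower and 8 higher (median 0.02), with *Gng13*, a G protein subunit, at 0.35 and 0.19 against 0.38 and 1.33, and *Podxl*, a sialomucin of cell surfaces, differing by 0.41 on its brightest and 0.03 on a second probe. The *Gng13* difference of -0.58 rested on wild-type replicate 2 and ran from -1.05 to -0.10 over the alternatives (adjusted p from 0.0043 to 0.985).

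Lists that the study drew from fetal to newborn *Foxl2*-null ovaries, per its methods on another array platform, held no called gene. Part of each list comes from genes that the study found shared with newborn ovaries lacking *Foxl2* together with *Wnt4* or *Kit*. Of 29 genes listed as lower in null ovary 19 had a named probe, of which 11 were lower and 8 higher in the heterozygote (median -0.05), the lowest being *Col8a1*, a short-chain collagen, at -2.18 and -2.41 against -1.07 and -1.24 (-1.14 ± 0.21, adjusted p = 0.104, limma). At the other end *Nupr1*, a stress-induced chromatin protein, was at -0.99 and -0.83 against -1.46 and -1.66 (0.65 ± 0.21, adjusted p = 0.346). Of 32 listed as higher in null ovary 24 had a named probe, of which 8 were lower and 16 higher (median 0.03), the highest being *Wnt11*, a Wnt ligand, at 1.97 and 1.91 against 1.31 and 1.16 (0.71 ± 0.21, adjusted p = 0.297).

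Other gene groups had medians near 0, with no called gene. Among 14 genes of cholesterol synthesis and uptake the median was -0.07, with *Dhcr7*, the last enzyme of synthesis, at -0.48 (adjusted p = 0.191, limma) and *Scarb1*, the HDL receptor, at -0.53 (adjusted p = 0.292), whose second probe showed -0.04 with overlapping arrays. Among 24 cell cycle genes 12 were lower and 12 higher (median -0.01), and among 22 listed matrix genes 10 were lower and 12 higher (median 0.00). The matrix genes that passed the test, *Thbs4*, *Col11a1*, *Smoc1* and *Lamb3*, are not members of that list. Of 12 immediate early and heat shock genes, which answer to tissue handling, 10 were higher (median 0.09), with *Jun* at 0.56 and *Dusp1* at 0.29. Of 122 genes within 10 Mb of *Foxl2*, which can carry the background of the targeted line, 67 were lower and 55 higher (median -0.01).

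Markers of other cell types were read beside these lists. Of 9 endothelial markers 7 were lower (median -0.23), with list means of 0.97 and 1.09 on the heterozygous and 1.22 and 1.38 on the wild-type arrays, and *Cldn5*, a tight junction protein, at -0.56 and *Emcn*, a sialomucin of endothelium, at -0.69. Over the alternative settings *Cldn5* ran from -0.70 to -0.08 and *Emcn* from -0.94 to -0.32. Of 9 fat markers 8 were lower (median -0.38, means 1.48 and 1.66 against 1.88 and 1.99), and of 8 smooth muscle markers 7 were higher (median 0.25, means 0.70 and 0.49 against 0.49 and 0.17). Of 10 macrophage markers 8 were higher (median 0.20), and red blood cell, surface epithelium and oviduct markers had medians of 0.07, 0.09 and 0.03. No marker passed the test. Of all these markers 3, among them *Ptprc* of macrophages and *Lmod1* of smooth muscle, were not well above background on all 4 arrays. No marker list had all of its members on 1 side except that of red blood cells, whose 6 genes were all higher by 0.11 or less. The medians of the endothelial and fat lists were below 0 in all 14 alternatives, as were those of the granulosa and theca lists, while those of the smooth muscle, macrophage and immediate early lists were above 0 in all 14. The part of these cell types in the differences of granulosa, theca and matrix genes was not tested.

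**Figure D3:**
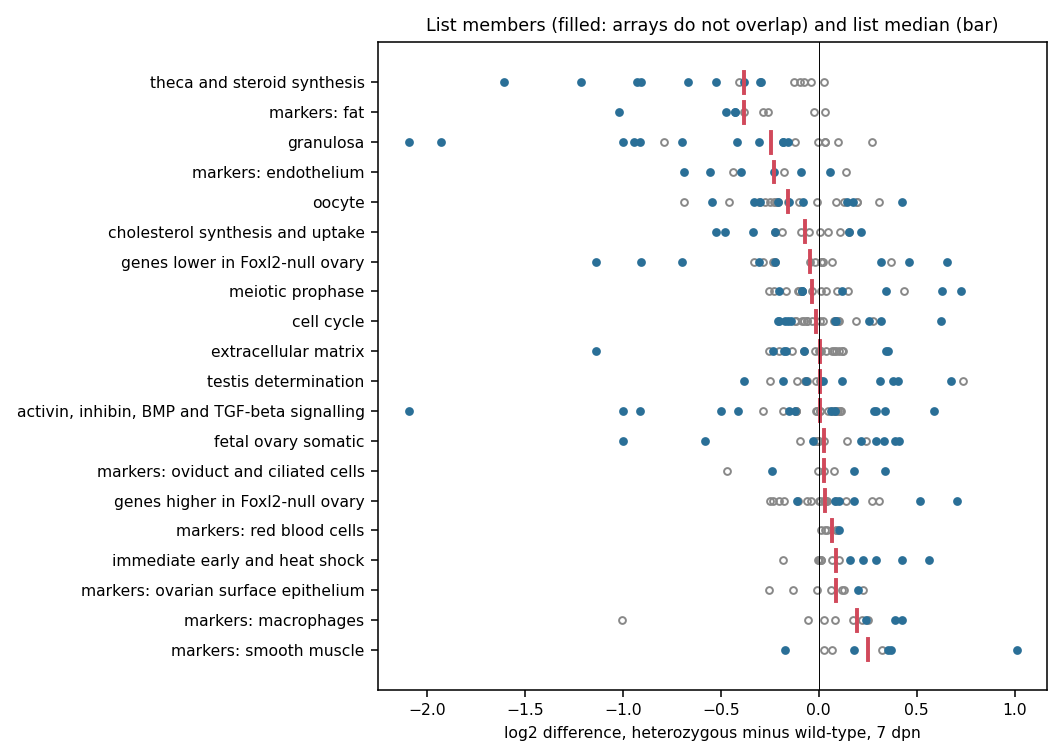
Log2 difference, heterozygous minus wild-type at 7 dpn (horizontal axis), of each member of 20 gene lists (vertical axis), filled where the heterozygous and wild-type arrays did not overlap, with a red bar at the list median. The theca and granulosa lists have medians of -0.38 and -0.24 and reach to -1.61 and -2.09, the fat and endothelial markers have medians of -0.38 and -0.23, and the smooth muscle markers one of 0.25.

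Null ovaries of 7 dpn were compared with the same wild-type arrays, so that the 2 comparisons share their controls and their values are only set side by side. In that comparison 1133 probes were lower (2.76%) and 1134 higher (2.77%), and 4.13% of the named genes were lower and 4.47% higher. *Inhba* differed from wild-type by -2.09 in heterozygous and -2.39 in null ovaries, *Cyp19a1* by -1.93 and -2.42, *Thbs4* by -1.41 and -1.69 and *Col11a1* by -0.99 and -1.17. The direct test of null against heterozygous was not passed by these 4 genes, with differences of -0.30 ± 0.29, -0.49 ± 0.33, -0.28 ± 0.17 and -0.18 ± 0.14 (adjusted p = 0.838, 0.691, 0.633 and 0.747, limma). *Rasgef1b* was further below wild-type in null (-1.45) than in heterozygous ovary (-0.59), and the null and heterozygous ovaries differed by -0.86 ± 0.09 (adjusted p = 0.0011). *Stom* was further above in null (1.81 against 0.96, null minus heterozygous 0.85 ± 0.14, adjusted p = 0.012).

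For some genes the heterozygote lay outside the range between wild-type and null. Beside *Smoc1*, those of the naming rule that also passed the test of null against heterozygous were *Mid1ip1*, at -0.70 in heterozygous and -0.08 in null ovary (null minus heterozygous 0.61 ± 0.11, adjusted p = 0.018, limma), *Casp6*, at 0.43 and -0.02 (-0.45 ± 0.07, adjusted p = 0.0073), and *Acss2*, at 0.54 and 0.18 (-0.36 ± 0.07, adjusted p = 0.020). *Mid1ip1* and *Casp6* were not called against wild-type. Like *Smoc1*, these genes were picked by their values on the heterozygous arrays. The test against null uses those arrays again, so passing it is not independent support. The granulosa list had a median of -0.24 in heterozygous and -1.02 in null ovary, and the theca list -0.38 in each. Null medians of other lists were -0.58 for endothelial, 0.32 for surface epithelium, 0.19 for smooth muscle and 0.02 for fat markers. The fetal somatic list had one of 0.43. The part of other cell types in the null values was not tested.

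In newborn ovaries, with 3 arrays of each genotype, 8 of 41005 probes were lower in heterozygous than in wild-type ovary (0.0195%) and 4 higher (0.00975%), with 0.0163% of the named genes lower and 0.0245% higher. Median centring gave 3 lower and 5 higher, and normexp 4 and 17, and leaving out 1 array moved the total from 0 (without newborn heterozygous replicate 1 or 2) to 2633 (without newborn wild-type replicate 1). None of the 19 probes called at 7 dpn was among them, and 18 of the 19 had the same sign at both ages. Over all 40993 probes with both values the heterozygous differences at 7 dpn and at birth correlated with r = 0.22. The share of all probes with the same sign was not counted. The heterozygous difference in newborns was -0.16 ± 0.24 for *Inhba*, -0.10 ± 0.12 for *Smoc1*, -0.20 ± 0.14 for *Thbs4* and -0.24 ± 0.11 for *Col11a1*. Their differences at 7 dpn exceeded those at birth by -1.93, -1.31, -1.21 and -0.74, but the tests of the change with age did not pass (adjusted p = 0.296, 0.144, 0.296 and 0.422, limma). *Fst* (-0.91) and *Inha* (-0.95) had about the same difference in newborns as at 7 dpn. The granulosa list had a median of -0.27 in newborns and the theca list -0.11. In the same newborn comparison the fat markers had a median of -1.02, with 8 of 9 lower, and the immediate early and heat shock genes one of 0.28, with 12 of 12 higher, and their part in the newborn values was not tested. Newborn and 7 dpn arrays were extracted by the scanner software on different days, so that age and day cannot be told apart. The heterozygous effect differed between the ages at 1 probe of all tested (0.00244%), and at 686 without newborn wild-type replicate 1, 76 without 7 dpn wild-type replicate 1 and 3 without 7 dpn wild-type replicate 2. No probe passed without any one of the other 7 heterozygous and wild-type arrays.

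**Figure D4:**
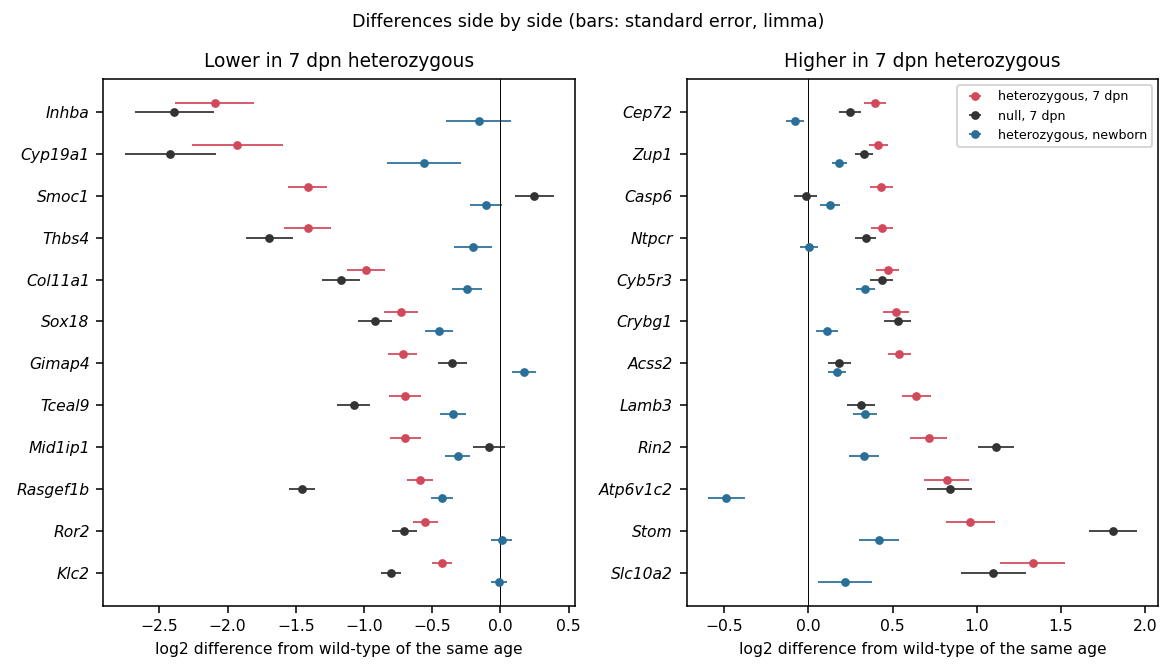
Log2 difference from wild-type of the same age (horizontal axis) for the 24 genes of the naming rule (vertical axis), with red for 7 dpn heterozygous, black for 7 dpn null and blue for newborn heterozygous ovaries and bars for the standard error from limma. The 7 dpn comparisons share the wild-type arrays. *Inhba* and *Cyp19a1* have heterozygous and null points near each other, whereas *Smoc1* has its null point at 0.25 and its heterozygous point at -1.41.

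**Figure D5:**
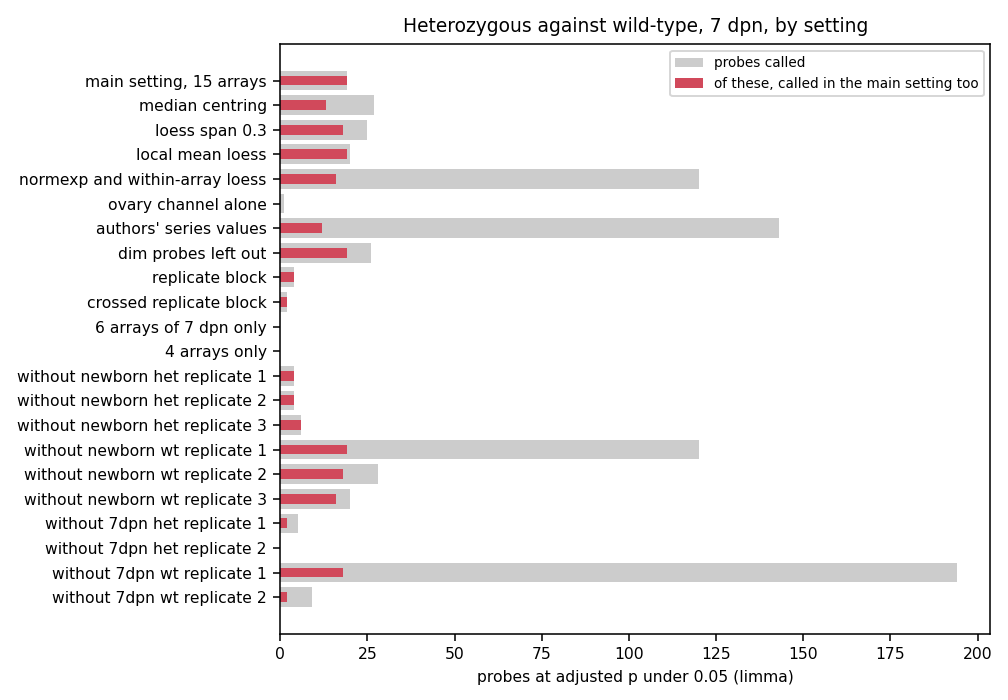
Number of probes with an adjusted p under 0.05 in limma for heterozygous against wild-type at 7 dpn (horizontal axis) under the setting reported and each alternative (vertical axis), grey for all probes called and red for those also among the 19 reported. Counts run from 0, with the 7 dpn arrays alone or without heterozygous replicate 2, to 194 without wild-type replicate 1.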

How the data were processed

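Each of the 15 arrays compared an ovary sample with the reference on 1 Agilent two-colour slide. The files the authors deposited give an intensity for every spot and channel from Agilent Feature Extraction, and its processed intensity is already background-subtracted and dye-balanced (LOWESS). The label protocol names a linear amplification kit, whereas the methods state no amplification at 7 dpn. Dyes were not swapped. A second deposited table (signal values of unstated scale) served, on a log2 scale, as an alternative.

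Ovary was divided by reference processed intensity and log2 taken. The 2396 control spots and 7 to 100 outlier spots an array were left out, spots of a probe were averaged, and each array was normalized by loess (span 0.01, local linear) against the mean array. Of 41006 probes 15294 were named through RefSeq accessions (12254 genes). A model with 1 mean for each of 6 groups was fitted over 15 arrays with limma 3.58.1 in R 4.3.3, with Benjamini-Hochberg adjustment over all probes tested, and called at 0.05. A probe missing on an array was fitted without it. The procedure was tested on simulated data.

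The arrays, lists and rules were chosen with earlier results of these data known. Named genes were, per direction, up to 12 of the brightest probes that were called, well above background on both arrays of 1 genotype and without overlap, filled up by smallest p with genes given as not called, and from each list up to 4 genes by p. Some further list members are named beside them for their function, chosen after their values were seen. Lists were described by counts and medians, with no set test. Nothing in the labels ties replicate numbers to shared litters or days, so they were not used as pairs. The number of arrays limits the precision, and p-values measure the spread between samples of a group over all 15 arrays, of which those of 7 dpn carried pools of mice.

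Alternatives were median centring, a span of 0.3, a local mean, normexp (offset 50) with within-array loess, the ovary channel alone, the series values, dim probes left out, a replicate block, the 7 dpn arrays alone, each array left out, and thresholds of 0.01 and 0.1. Crossed replicate numbers, and arrays of the other age left out, were added after seeing the data.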

Additional observations from a re-analysis of the deposited data

Results flagged for a closer look

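The probe AB028894.1, which carries no gene symbol here, was the 1 probe whose heterozygous effect differed between the ages by the test of that difference (0.00244% of the probes tested). Its log2 ratio at 7 dpn was -0.45 and -0.38 in heterozygous and 0.14 and 0.04 in wild-type ovaries, a difference of -0.50 ± 0.06 (adjusted p = 0.026, limma), while in newborns the difference was 0.28 (adjusted p = 0.077). Over the alternative settings the difference at 7 dpn ran from -0.55 to -0.08. The effect at 7 dpn minus that at birth was -0.78 ± 0.08 (adjusted p = 0.032, limma). No probe was called for this difference under normexp, the ovary channel alone, the series values, the replicate block or a threshold of 0.01, nor without any one of the 3 newborn heterozygous arrays, newborn wild-type replicate 2 or 3, or either heterozygous array of 7 dpn.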

How the results depend on the processing

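With 2 pooled samples a genotype, the number of arrays limits what can be called. Of the 19 probes called in limma, 18 kept their direction in all 14 alternatives, and BX635637.1 turned from -0.47 to 0.29 with the ovary channel alone. The count for 7 dpn was 120 under normexp (89 higher and 31 lower), 143 with the series values (124 and 19, where the median of all probes moved to 0.07), 1 with the ovary channel alone, 0 with the 6 or the 4 arrays of 7 dpn, 1 at a threshold of 0.01 and 63 at 0.1. Median centring gave 27 (66.7% higher against 36.8%), a span of 0.3 gave 25 (48% higher) and leaving out dim probes 26 (46.2% higher). Leaving out each array gave 0 to 194. The highest were 194 without wild-type replicate 1 of 7 dpn and 120 without newborn wild-type replicate 1. Counts more than 1.5 times below 19 were 0 without heterozygous replicate 2, 5 without replicate 1 and 9 without wild-type replicate 2 of 7 dpn, and 4, 4 and 6 without newborn heterozygous replicates 1, 2 and 3. For newborns the reported 12 (8 lower and 4 higher) became 8 with median centring (3 and 5), 21 under normexp (4 and 17), 0 with the ovary channel alone, 2 with the series values, 0 at 0.01, 136 at 0.1 and 0 to 2633 with an array left out, 2633 being without newborn wild-type replicate 1. For the change with age the reported 1 became 0 under normexp, the ovary channel alone, the series values and 0.01, 5 at 0.1, and 0 to 686 with an array left out (686 without newborn wild-type replicate 1, 76 and 3 without wild-type replicates 1 and 2 of 7 dpn). Probes without overlap numbered 14274 to 18152, the highest being the series values (2748 lower and 15404 higher against 6915 and 7813), and the ovary channel alone gave 8472 lower and 7159 higher.

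Replicate numbers do not pair the samples as far as the labels say, and deviations of same-numbered heterozygous and wild-type arrays correlated with r = -0.136 at 7 dpn. In newborns these were 0.118, 0.0739 and 0.143 for replicates 1, 2 and 3. With the replicate block 4 probes were called at 7 dpn, 0 in newborns and 0 for the change with age. With crossed numbers at 7 dpn, added after seeing the data, 2 were called. A block by slide or day could not be fitted, since each 7 dpn array has its own slide and all share a day.

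Over 80 genes and probes named, called or used as checks, 922 values stayed the same, 142 lost the threshold, 42 gained it, 8 turned sign and 2 moved. For the checks, *Foxl2* and the Y-linked genes, no threshold applied. There same or moved meant a shift within or beyond the spread between arrays. The 8 that turned sign were *Figla* (0.38 under normexp, 1.15 with the ovary channel alone, 1.10 with the series values) and, with the ovary channel alone, *Dazl* (0.0443), *Lhx8* (-0.0441), *Nr5a1* (0.18), *Cep72* (-2e-04) and BX635637.1 (0.29). The causes were not tested.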
